A study of Mus musculus with 6 samples.

Results

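The genes of plasminogen activation and of the trigger of coagulation were followed in RNA from mouse microglia that had been cultured with neutrophils for 24 h. The members were 7 genes taken by symbol, Plau, Plaur, Plat, Serpinb2, F3, F10 and Thbs1, out of 55335 gene identifiers in the deposited table. All 7 were found. The microglia were primary cells shaken off mixed glial cultures made from the brains of newborn C57BL/6 mice, and they were of WT genotype in all 6 libraries. What differed was the partner cell. Neutrophils were taken by magnetic sorting from spinal cord lesions 3 days after spinal cord injury, either from mice lacking Cd177, a neutrophil surface glycoprotein, (KO, 3 libraries) or from mice with the gene (WT, 3 libraries). After co-culture, the Ly6G- cells were collected by flow sorting as microglia. Both groups therefore share the newborn microglia, the lesion origin of the neutrophils and the sort, no culture without neutrophils is part of the comparison, and the design compares the neutrophil genotype. The sources used here do not say whether the 3 libraries of a group came from separate cultures or animals, so the p-values measure the spread between these libraries, which may be technical.

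Plasmin is the protease that dissolves fibrin and, around cells, cleaves matrix proteins and activates other proteases. It is made from plasminogen by urokinase (Plau) or tissue-type plasminogen activator (Plat). Urokinase is held at the cell surface by its receptor uPAR (Plaur), and both activators are blocked by serpins, among them PAI-2 (Serpinb2). Tissue factor (F3) is the membrane receptor that starts coagulation: with factor VII it activates factor X (F10), which turns prothrombin into thrombin. Thrombospondin-1 (Thbs1) is a secreted matrix protein that binds the cell-surface proteins CD36 and CD47 and activates latent TGF-beta. Microglia and macrophages are known sources of urokinase and uPAR, and plasminogen activators have long been studied in the injured nervous system.

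Values were FPKM, which scale the fragments of a gene to its transcript length and to the number of fragments mapped in the library, so that genes can be compared per length. Genes whose average across the 6 libraries reached 1 FPKM were tested with limma on log2(FPKM + 1), with Benjamini-Hochberg adjustment over the 11395 genes that passed, and a gene was called at an adjusted p under 0.05. Of the 7 members, 4 passed the filter (Plau, Plaur, F10 and Thbs1) and 3 were under it (F3, Plat and Serpinb2). Log2 changes are KO minus WT throughout, and fold changes on this scale understate the change of low genes. FPKM sums per library were 314085 to 315632 in WT and 323588 to 326868 in KO, and mitochondrial genes took 11.1 to 11.3% and 14.3 to 14.6% of them. Fragment counts could not be recovered from the FPKM values, so the depth behind each value is unknown.

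The cells were checked against marker genes. All 10 genes of a shared macrophage list were above 1 FPKM. All of them but Lyz2 had no overlap between groups, in either direction, as had 55.8% of all tested genes. Lyz2 overlapped between groups, at 480 to 513 FPKM in WT and 492 to 505 FPKM in KO. Cd14 was at 468 to 482 FPKM in WT and 135 to 138 FPKM in KO, Adgre1 at 99.7 to 104 FPKM and 37.5 to 40.4 FPKM, and Lgals3 at 263 to 276 FPKM and 432 to 451 FPKM. The part of these shifts in the members' values was not tested. Of the microglia markers, Csf1r, Trem2 and Cx3cr1 averaged 1 FPKM or more. The other 12 of 15 microglia markers were under it: Tmem119 lay between 0.204 and 0.793 FPKM, P2ry12 between 0.023 and 0.148 FPKM, and Sall1, Fcrls and C1qa were listed at 0 in every library. The label microglia therefore rests on the isolation and the sort, and these markers do not separate microglia from other macrophages here. The summed level of the 15 was 29.8 to 32.5 FPKM in WT and 49.4 to 50.3 FPKM in KO, most of it Csf1r and Trem2. Within this list Cx3cr1 went against the sum, at 2.41 to 2.98 FPKM in WT and 0.956 to 1.43 FPKM in KO, while Trem2 was at 11.2 to 13.2 FPKM in WT and 27.5 to 28.2 FPKM in KO. Of 16 neutrophil markers none reached 1 FPKM in any library and 8 were at 0 in all 6, Ly6g, S100a9, Mpo and Elane among them. Their summed level was 2.06 to 2.37 FPKM in WT and 1.02 to 1.38 FPKM in KO, though Prtn3 and Ngp averaged higher in KO. Markers of astrocytes and oligodendrocytes (13 genes, summed 0.289 to 0.400 FPKM) and of fibroblasts, endothelial and mural cells (13 genes, summed 0.0883 to 0.465 FPKM) had no member with a mean of 1 FPKM. Of 9 megakaryocyte and platelet markers only Pf4 did, at 45.9 to 51.8 FPKM, while Itga2b and Gp9 were at or near 0. In bulk RNA, fewer cells of a type and less RNA per cell cannot be told apart.

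Promoter windows were available for 4 of the 7 members in the RefSeq table (build GRCm38.p6, 250 bases before to 50 after the annotated start): F3, Plaur, F10 and Serpinb2, the last with 2 annotated starts. The 250 bases before the start are shown for F3 (chr3:121723287-121723536), Plaur (chr7:24462233-24462482) and F10 (chr8:13037058-13037307), all on the plus strand and 5′ to 3′, because F3 and Plaur were the members with windows that hold the same AP-1 motif and were lower in KO, and F10 was the member with a window that was higher. Serpinb2, which was also lower in KO, has no AP-1 match in either of its windows and is not shown. Capitals mark matches to the searched motifs.
F3: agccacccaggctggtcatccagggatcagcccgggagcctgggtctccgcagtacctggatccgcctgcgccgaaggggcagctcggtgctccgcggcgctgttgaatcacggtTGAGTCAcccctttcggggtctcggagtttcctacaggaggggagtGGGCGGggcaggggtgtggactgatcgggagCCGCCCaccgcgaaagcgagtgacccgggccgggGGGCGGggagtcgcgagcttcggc
Plaur: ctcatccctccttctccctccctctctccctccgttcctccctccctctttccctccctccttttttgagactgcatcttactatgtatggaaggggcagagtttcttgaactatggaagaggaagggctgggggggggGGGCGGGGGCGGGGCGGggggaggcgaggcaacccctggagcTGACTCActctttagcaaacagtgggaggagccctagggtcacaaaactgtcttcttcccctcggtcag
F10: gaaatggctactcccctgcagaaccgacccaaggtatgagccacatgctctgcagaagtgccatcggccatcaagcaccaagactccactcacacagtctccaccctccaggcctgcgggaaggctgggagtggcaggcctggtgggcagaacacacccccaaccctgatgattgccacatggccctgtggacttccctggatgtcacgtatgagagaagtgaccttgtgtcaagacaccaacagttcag

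The motifs were searched as exact letters on both strands of the 300-base windows: AP-1 (TGACTCA, read as TGAGTCA on the other strand), CRE (TGACGTCA), TATA box (TATAAA), SP1 (GGGCGG), E-box (CACGTG) and the NF-kB consensus. AP-1, the motif bound by Fos and Jun proteins, occurred once in F3, with its first base 135 bases before the start, and once in Plaur, 69 bases before it. Neither Serpinb2 window held AP-1. Of all 32851 windows, 5.2% held AP-1. SP1 matched 3 times in F3 and 3 times in Plaur, where the matches lie in 1 run of G and C and 2 of them share a base, and 35.7% of all windows held it. A TATA box lay 29 bases before the first start of Serpinb2, which is 116 bases before its second start, and F3 held the letters on the reverse strand 44 bases after its start. TATA box letters were in 13.6% of all windows. None of the members' windows held CRE (1.79% of all windows), the E-box (7.15%) or the NF-kB consensus (8.46%), and the F10 window held none of the 6 motifs. A match is a description of letters, not a binding site, and no match says only that these letters are not in this window.

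**Figure D1:**
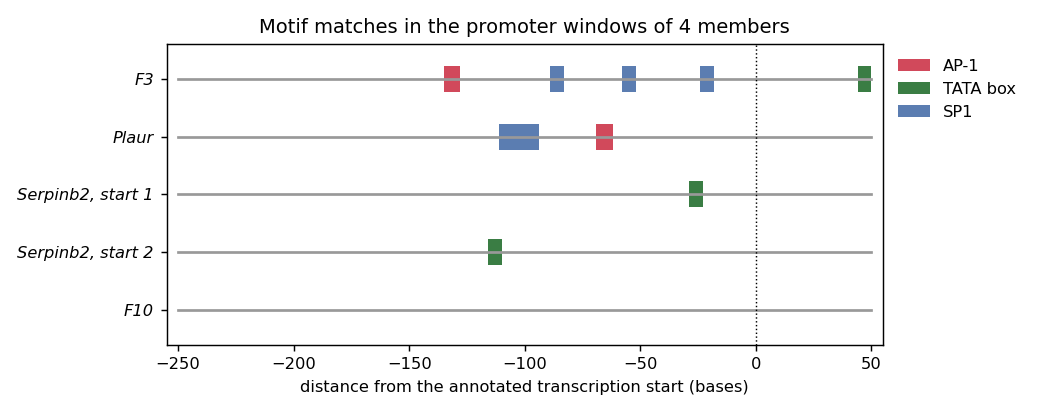
Motif matches in the promoter windows of the 4 members that have one, by distance in bases from the annotated start (dotted line); each horizontal line is 1 window and coloured blocks are matches on either strand. F3 and Plaur each carry 1 AP-1 match, 135 and 69 bases before the start, and the F10 line carries no block.

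All 4 tested members were called, 2 higher in KO (Plau and F10) and 2 lower (Plaur and Thbs1). Across all tested genes 43.3% were called, 24.5% higher and 18.8% lower, so a call by itself was common in these libraries. When each library was scaled to a common FPKM sum, 54.92% of the calls over all genes were lower in place of 43.43%, and the median change of all genes moved from 0.02 to -0.02. The direction and call of the 4 members were the same on that scale. A call together with a fitted change of at least 1.5-fold was made for 7.81% of tested genes and for 2 of the 4 members, Plau and Plaur. The 3 WT and the 3 KO values did not overlap in 55.8% of tested genes, and they did not overlap for any of the 4. The median absolute log2 change was 0.17 over all tested genes and 0.32 over the called ones, against 0.87 for Plau, 0.85 for Plaur, and 0.28 for both F10 and Thbs1.

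**Figure D2:**
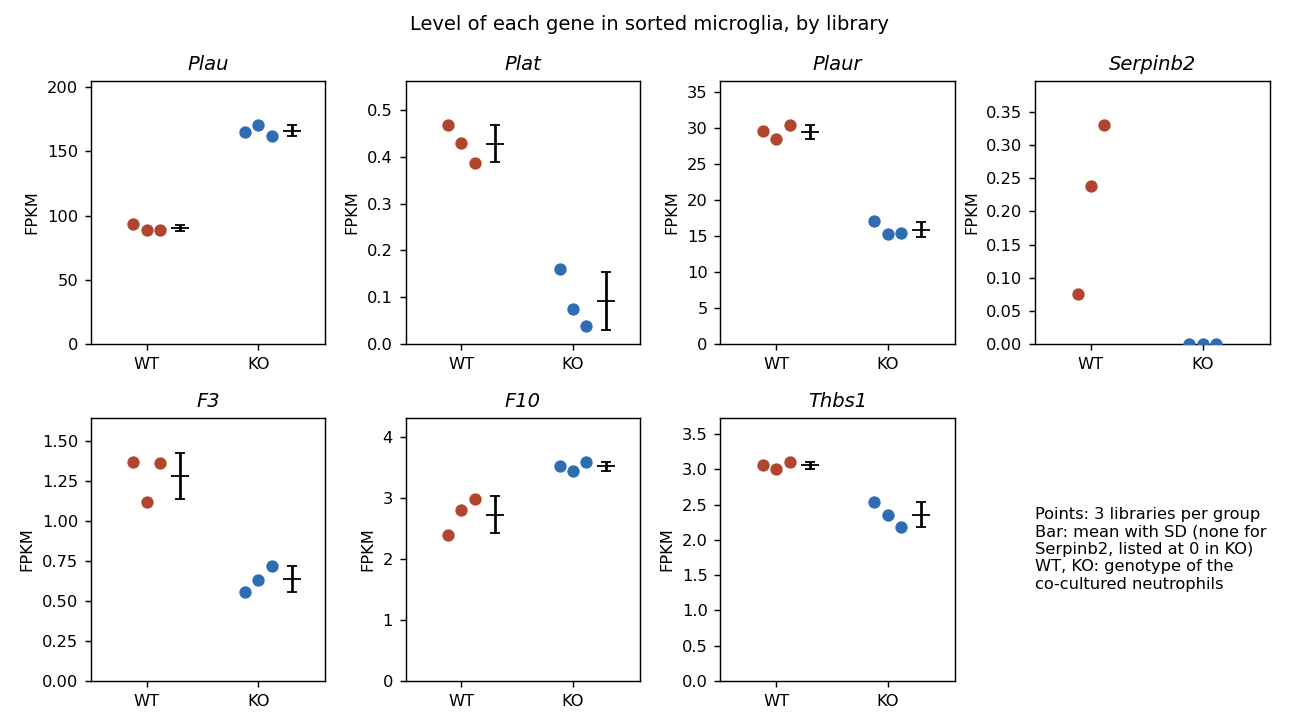
FPKM of the 7 members in each library, with the WT-neutrophil co-cultures on the left and the KO-neutrophil co-cultures on the right of each panel; points are the 3 libraries of a group and the bar is the mean with its SD (none for Serpinb2). In every panel the groups do not overlap, with Plau and F10 higher in KO and the other 5 members lower, and the axes differ in scale from 0.33 FPKM at most for Serpinb2 to 171 FPKM for Plau.

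Plau, the urokinase gene (chr14:20836660-20843385 in GRCm38), was the most abundant member. Its level was 93.3, 88.8 and 89.2 FPKM in the WT libraries and 165, 171 and 162 FPKM in the KO libraries. All KO values were far above all WT values, and the spread within a group was small against the gap, with means of 90.4 ± 2.47 and 166 ± 4.26 FPKM (SD, n = 3 each). The log2 change was 0.87 (SE 0.029, 1.83-fold, limma adjusted p = 4.63e-06), larger in size than 96.3% of tested genes. Over all alternatives the log2 change lay between 0.82 and 0.89.

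Plaur encodes the urokinase receptor (chr7:24462484-24475968) and went the opposite way. It was read at 29.5, 28.5 and 30.5 FPKM in WT and at 17.1, 15.3 and 15.4 FPKM in KO. The lowest WT library was well above the highest KO library, and the means were 29.5 ± 0.984 and 15.9 ± 1.02 FPKM (SD, n = 3 each). The log2 change was -0.85 (SE 0.051, 1.80-fold lower, limma adjusted p = 4.62e-05). Its range over the alternatives was -0.90 to -0.82.

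As ligand and receptor moved apart, their ratio within each library had to move more than either gene. It is therefore a description and not a separate result. Per Plaur FPKM there were 3.16, 3.12 and 2.93 Plau FPKM in WT and 9.66, 11.2 and 10.5 Plau FPKM in KO. Every KO ratio was far above every WT ratio, with means of 3.07 ± 0.122 and 10.5 ± 0.758 (SD, n = 3 each). On the log2(FPKM + 1) scale the ratio of Plaur to Plau differed by -1.72 (exact two-sided permutation p = 0.1, the smallest that 3 against 3 libraries allow).

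**Figure D3:**
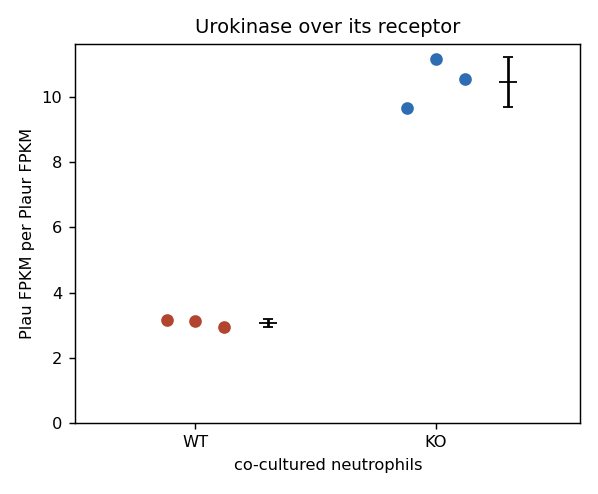
Plau FPKM per Plaur FPKM in each library, by genotype of the co-cultured neutrophils; points are libraries, the bar is the mean with its SD over 3 libraries, and the axis starts at 0. The KO libraries sit at 9.66 to 11.2, above WT libraries at 2.93 to 3.16.

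Plat, the other activator, was a minor transcript in these cells (chr8:22757727-22782844). Its values were 0.468, 0.429 and 0.387 FPKM in WT and 0.160, 0.0751 and 0.0393 FPKM in KO. Every KO library was below every WT library, but all 6 lay under 0.5 FPKM, so the gene was under the filter on low values. The mean was 4.68 times as high in WT as in KO on the FPKM scale (exact two-sided permutation p = 0.1). KO replicate 1 decided much of this ratio, which was 7.48 without it and between 3.64 and 4.90 without any other 1 library. With no filter the log2 change was -0.39 (SE 0.051, limma adjusted p = 0.00505). At this level it hardly entered the summed activator transcript, of which Plau made up nearly all.

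Serpinb2, which encodes PAI-2 (chr1:107511423-107535478), was at 0.0754, 0.238 and 0.330 FPKM in WT and was listed at 0 in all 3 KO libraries. The groups did not overlap, but all values were low, the WT libraries differed among themselves by more than the lowest of them, and no fold is given against a group at 0. With no filter the gene was not called (limma adjusted p = 0.0687). It shares 291 exonic bases on the same strand with Serpinb10, so reads may have been split between these genes.

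F3, the tissue factor gene (chr3:121723537-121735048), lay just under the filter with a mean of 0.96 FPKM. It was at 1.37, 1.12 and 1.36 FPKM in WT and at 0.560, 0.634 and 0.720 FPKM in KO. All 3 WT libraries were above 1 FPKM and all 3 KO libraries below it, and the mean was 2.02 times as high in WT (1.29 ± 0.144 against 0.638 ± 0.080 FPKM, SD, n = 3 each, exact two-sided permutation p = 0.1). With no filter the log2 change was -0.48 (SE 0.081, limma adjusted p = 0.0127). When a KO library was left out, the mean over the rest rose above 1 FPKM, and F3 was tested and called lower. It passed the filter there only through the WT libraries, where it was high, so these calls add no support. Without any 1 WT library it stayed under the filter.

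F10 encodes factor X (chr8:13037308-13056676), the substrate of the tissue factor complex. It had 2.39, 2.79 and 2.98 FPKM in WT and 3.52, 3.43 and 3.59 FPKM in KO. The KO libraries lay close together above the WT libraries, which were more spread, with means of 2.72 ± 0.303 and 3.51 ± 0.081 FPKM (SD, n = 3 each). The log2 change was 0.28 (SE 0.072, 1.22-fold, limma adjusted p = 0.0215). Of the 4 calls it was the one lost under an alternative: it was lost with no filter (limma adjusted p = 0.0597), without KO replicate 1 (0.0574), without KO replicate 2 (0.0505) and without KO replicate 3 (0.0651), all with the log2 change between 0.27 and 0.29.

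Thbs1, the thrombospondin-1 gene (chr2:118111876-118127133), was lower in KO by a similar amount. The WT libraries read 3.06, 3.01 and 3.11 FPKM and the KO libraries 2.54, 2.35 and 2.18 FPKM. Groups did not overlap, and here it was the KO libraries that were more spread, with means of 3.06 ± 0.051 and 2.36 ± 0.181 FPKM (SD, n = 3 each). The log2 change was -0.28 (SE 0.060, 1.21-fold lower, limma adjusted p = 0.0117). The gene shares 208 exonic bases with Gm29233, annotated on the opposite strand, and no source used here says whether strand was used in counting.

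The summed level of the 16 neutrophil markers was lower in KO (1.02 to 1.38 against 2.06 to 2.37 FPKM). That sum was far below the Plaur level in every library and above that of F3, Plat or Serpinb2. Single markers did not all follow it. S100a8, Camp, Csf3r and Cd177 were lower in KO without overlap, Mmp8 and Cxcr2 overlapped, and Prtn3 and Ngp averaged higher in KO. Ly6g, S100a9, Mpo and Elane were at 0 throughout. Cd177 itself, which the microglia of both groups carry, was at 0.477, 0.113 and 0.151 FPKM in WT and 0.109, 0.022 and 0.084 FPKM in KO. The part of neutrophil RNA in the values of the low members was not tested.

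The order of the levels was Plau, Plaur, then Thbs1 and F10, then F3, Plat and Serpinb2. In WT, Thbs1 stood above F10 in every library, but the lowest Thbs1 value (3.01 FPKM) and the highest F10 value (2.98 FPKM) nearly met. In KO the order of this pair was turned, with F10 at 3.43 FPKM or more and Thbs1 at 2.54 FPKM or less. All other neighbours in the order kept their places in both groups without overlap. Plau made up 69.8 to 71.7% of the members' summed FPKM in WT and 87.4 to 88.7% in KO, whereas Plaur made up 22.7 to 23.8% in WT and 7.94 to 9.04% in KO.

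Around urokinase, a fixed list of 26 other plasminogen system genes held 11 that were tested, of which 2 were called higher and 4 lower, with a median log2 change of -0.10 against 0.02 over all tested genes. Here 54.5% were called, not far from the 43.3% over all tested genes (24.5% higher and 18.8% lower). Serpine2, which encodes an inhibitor of urokinase, was listed at 0 in every library. Plg, the plasminogen gene, was at 0 in 5 libraries and at 0.014 FPKM in KO replicate 3, so the substrate of the activators had almost no transcript in these cells. These are transcript levels, and neither secreted protein nor plasmin activity was measured in these files.

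Among the surface proteins that gather plasminogen, S100a10, the partner of annexin A2 in a plasminogen-binding complex, was at 67.0, 70.1 and 71.0 FPKM in WT and 113, 111 and 118 FPKM in KO. It rose by 0.71 on the log2 scale (SE 0.034, limma adjusted p = 1.75e-05), and its groups were far apart. Anxa2, the annexin A2 gene itself, was at 73.5, 78.0 and 78.6 FPKM in WT and 79.3, 77.0 and 77.9 FPKM in KO. These values overlapped, Anxa2 was not called (log2 change 0.03, SE 0.032, limma adjusted p = 0.546), and its sign turned to -0.02 on the common sum scale. Lrp1, the endocytic receptor that clears activators bound to their inhibitors, was at 45.8, 45.8 and 45.2 FPKM in WT and 54.6, 55.6 and 54.0 FPKM in KO. It was called higher (log2 change 0.26, SE 0.022, limma adjusted p = 2.44e-04), and its groups did not overlap.

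The 4 genes of the list called lower were Itgb2, Itgb3, Igf2r and Eno1, which are named only because their number is small, after their values were seen. Itgb2, the beta chain of the leukocyte integrins and a partner of uPAR on the cell surface, had a log2 change of -0.49 and Itgb3 one of -0.33. Itgb3 averaged 1.34 FPKM in WT and 0.862 FPKM in KO, so it passed the filter only through the WT group, where it was high. Its call was lost without WT replicate 1, WT replicate 3, KO replicate 1 or KO replicate 3 (limma adjusted p up to 0.0790). Igf2r, a receptor that also binds uPAR and plasminogen, changed by -0.30, and Eno1, a glycolytic enzyme that binds plasminogen on the cell surface, by -0.29. The remaining tested genes of the list were not called (Plgrkt, Itgam, Itgav, Itgb1 and Anxa2). One of them, Itgam, had a WT library that stood apart, at 8.12 FPKM against 23.9 and 26.7 FPKM in the others.

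**Figure D4:**
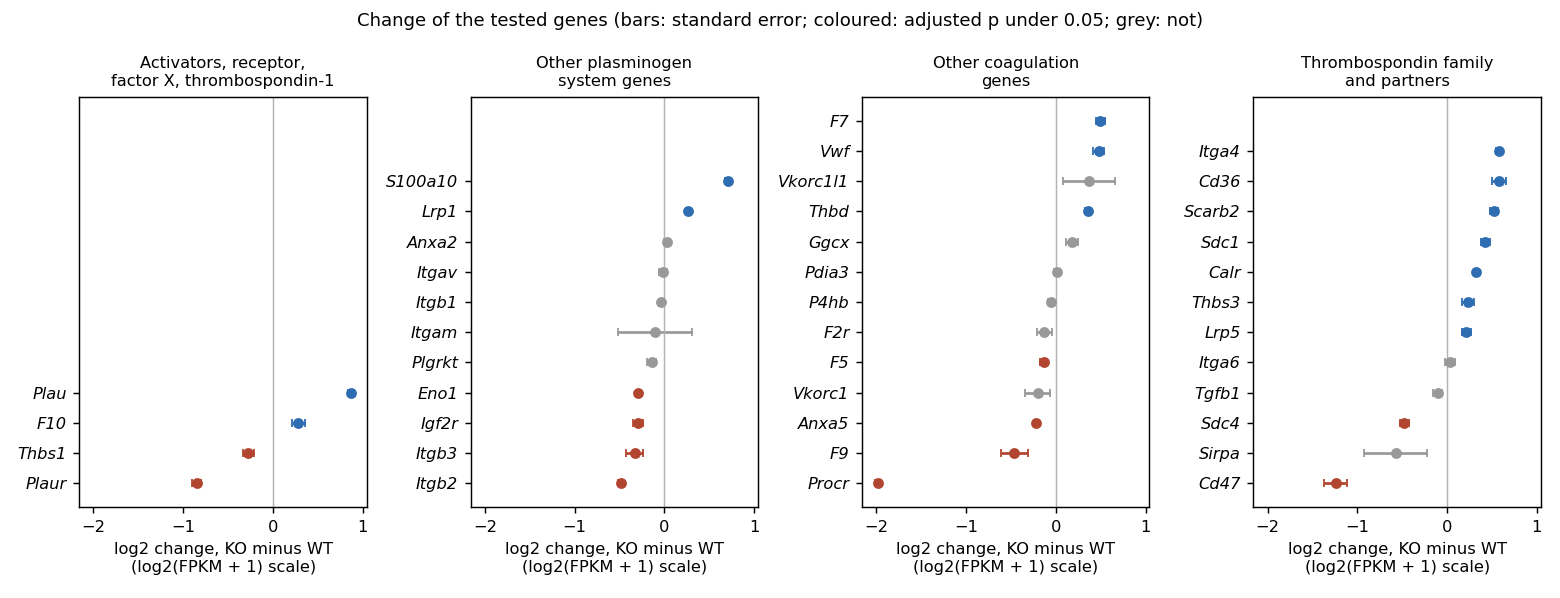
Log2 change (KO minus WT, log2(FPKM + 1) scale) of every tested member and of every tested gene reported from the 3 surrounding lists; points are limma estimates, bars their standard errors, blue and red mark genes called higher and lower, and grey marks genes not called. Procr (-1.98) and Cd47 (-1.24) lie furthest to the left, and Plau (0.87) lies furthest to the right.

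Of 30 other genes of coagulation and its control, 13 were tested, 3 were called higher (F7, Vwf and Thbd) and 4 lower (Procr, F9, Anxa5 and F5), with a median log2 change of -0.06. The share called was 53.8%, not far from the 43.3% of all tested genes. F7, the partner of tissue factor, was at 35.5, 30.9 and 32.5 FPKM in WT and 46.0, 48.2 and 46.3 FPKM in KO. It was therefore far more abundant than F3, and it rose by 0.50 on the log2 scale (SE 0.052, limma adjusted p = 5.49e-04) with no overlap between groups. F7 and F10 lie next to each other on chromosome 8, and both were higher in KO. Downstream, F2 (prothrombin), F11 and the fibrinogen genes Fga, Fgb and Fgg were listed at 0 in all 6 libraries, and F5, the cofactor of factor X, was called lower with a log2 change of -0.14. F9 was called at a limma adjusted p of 0.0476. The calls of F5 and F9 were each lost without WT replicate 1, WT replicate 3, KO replicate 1 or KO replicate 2 (limma adjusted p up to 0.0826 and 0.132).

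The largest coagulation change was in Procr, the endothelial protein C receptor, which presents protein C for activation and so serves the anticoagulant arm. It was at 67.2, 64.1 and 64.5 FPKM in WT and 15.3, 15.9 and 16.2 FPKM in KO. The groups were far apart at their nearest values, and the log2 change was -1.98 (SE 0.034, 3.94-fold lower, limma adjusted p = 2.74e-07). Thbd, thrombomodulin, which works with this receptor, went the other way, from 7.31, 7.08 and 7.01 FPKM in WT to 9.32, 9.44 and 9.47 FPKM in KO (log2 change 0.36, limma adjusted p = 4.52e-04). Proc, the gene of protein C, was listed at 0 in every library. F2r, a thrombin receptor, was at 2.47, 2.24 and 1.90 FPKM in WT and 1.90, 1.93 and 1.95 FPKM in KO, where the ranges overlapped, and it was not called (log2 change -0.13, limma adjusted p = 0.242).

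Tfpi, the inhibitor of the tissue factor complex, was near 0 in both groups, at 0, 0.024 and 0.046 FPKM in WT and 0 in all 3 KO libraries, and Tfpi2 was listed at 0 throughout. On the log2(FPKM + 1) scale F3 minus Tfpi was 1.16 ± 0.0997 in WT and 0.71 ± 0.0704 in KO (SD, n = 3 each), a difference of -0.45 (exact two-sided permutation p = 0.1). With Tfpi at or near 0 no plain ratio can be given, the pseudocount sets these values, and they carry little beyond the level of F3.

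Thrombospondin-1 was set beside 20 genes of its family and its binding partners, of which 12 were tested, 7 were called higher and 2 lower, with a median log2 change of 0.22. This is 75% called, against 43.3% of all tested genes (24.5% higher and 18.8% lower). Its surface partners Cd36 and Cd47 were called in opposite directions. Cd36, the scavenger receptor, was at 11.4, 9.94 and 10.5 FPKM in WT and 17.2, 14.8 and 17.1 FPKM in KO, without overlap (log2 change 0.58, SE 0.074, limma adjusted p = 0.00127). Cd47, the surface protein that also signals to phagocytes through SIRP-alpha, was at 15.7, 21.4 and 22.0 FPKM in WT and 8.25, 7.52 and 7.28 FPKM in KO. Replicate 1 was the lowest of the WT libraries, and it was still well above the highest KO value (log2 change -1.24, SE 0.127, 2.37-fold lower, limma adjusted p = 4.90e-04). The other call lower was Sdc4, a cell-surface proteoglycan (log2 change -0.48), named after its value was seen. Of the other thrombospondins, Thbs2 and Thbs4 were listed at 0 in every library and Thbs3 was at 1.89 to 2.74 FPKM. Thbs3 was called higher (log2 change 0.23), a call that was lost on leaving out any 1 library but WT replicate 1 (limma adjusted p up to 0.0959).

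**Figure D5:**
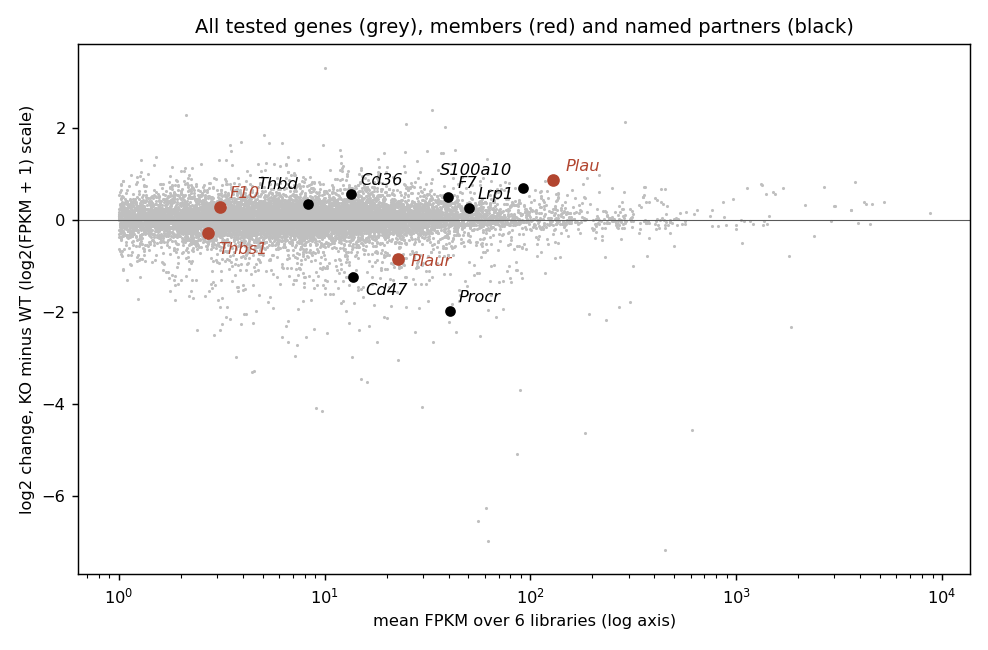
Log2 change (KO minus WT, log2(FPKM + 1) scale) against mean FPKM over the 6 libraries (log axis) for all 11395 tested genes in grey, with the 4 tested members in red and named partners in black. Plau and Plaur lie outside the main band at 0.87 and -0.85, while F10 and Thbs1 lie inside it at 0.28 and -0.28.

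For each tested member, the genes whose log2 levels ran most closely with it over the 6 libraries were taken as a description. With 2 groups of 3 libraries such values mainly reflect the shift between groups, and the points share libraries. Nearest to Plau were Il6ra and Ahnak (Pearson r = 0.9996 and 0.9995, n = 6). Plaur had Sertad2 and Cflar (0.9996 and 0.9994). The closest to F10 were Mt2 and E430024I08Rik (0.997 and 0.993), and Hk3 ran close to Thbs1 (0.997).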

How the data were processed

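RNA of 6 libraries of Ly6G- sorted microglia was analysed, 3 per genotype of the co-cultured neutrophils, grouped by sample title. The authors deposited 1 table of FPKM values per gene and library, without pooling. The submitters' processing notes name fastp 0.17.1, HISAT2 2.1.0, DESeq2 1.18.1 and R 3.4.3. The quantification program, genome build and annotation are not given in the sources used here, and the kit and sequencer in the labels are not those in the published methods. No value column was left out.

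Symbols and positions came from GENCODE M21 (GRCm38), which covered 55154 of 55335 identifiers. FPKM values were tested as log2(FPKM + 1) with limma 3.58.1 in R 4.3.3 (lmFit, eBayes with a mean-variance trend, Benjamini-Hochberg adjustment), for genes averaging 1 FPKM or more. This was checked on simulated data. The simulation held far fewer changed genes than were called here and drew independent noise, so it does not cover technical replicates. Single values and ratios were tested with an exact permutation test (scipy 1.17.1). Steps of whole fragments were looked for in the low FPKM values, and 11.7 to 12.7% of them came out whole within 0.05 of a fragment, so reads could not be recovered and no count test was run. Correlations between libraries were 0.988 to 0.989 within groups and 0.957 to 0.959 between groups.

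The members and gene lists were chosen with earlier results of these data known. Named were all 7 members, listed genes called with at least 1.5-fold change, a fixed set of inhibitors, receptors and partners, and the genes most alike each tested member, up to 2 each. Alternatives were pseudocounts, filters, scalings, variance models, a replicate block and leaving out each library. A planned comparison of the protease proteins was not run, and a few planned genes and the ratios that need them are not reported here. Promoters came from RefSeq (GRCm38.p6).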

Additional observations from a re-analysis of the deposited data

How the results depend on the processing

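Of 339 values recomputed under alternatives, 6 moved past a limit, 4 were no longer past the threshold and 2 newly passed it. The limit was the replicate SD for ratios and members under the filter, and 1.5 times for a count. Tested genes were judged only by sign and call, so their size could move by more than the SD. The rest stayed on their side of the threshold or within those limits. Anxa2, which was not called, changed sign on the common sum scale and without WT replicate 1. No called value changed sign. With a pseudocount of 0.1 in place of 1, the group difference in F3 minus Tfpi on the log2 scale became -0.6263, with or without Tfpi2, and the log2 changes became -1.51 for Plat, -1.557 for Serpinb2 and -0.9096 for F3. A smaller pseudocount shrinks low genes less by construction. With no filter, Plat (-0.3889, limma adjusted p = 0.005045) and F3 (-0.4802, limma adjusted p = 0.01271) were tested and called, and F10 (0.2815, limma adjusted p = 0.05973) was not called among 25195 genes. Leaving out 1 library at a time, the F10 log2 change lay between 0.2156 and 0.3321, and its call was lost without any 1 of the KO libraries. The cause was not tested. At a mean of at least 5 FPKM, F10 and Thbs1 were not tested, and 2 of 2 tested members were called.

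With the replicate number as a block, the replicate block fit called 4212 of 11395 genes in place of 4930 and changed no member's call. Same-numbered libraries did not deviate together (correlations -0.075, -0.052 and -0.005). With so few libraries this cannot show whether they were prepared in pairs. Over the settings between 3763 and 4931 genes were called, and 4 to 8 genes of the plasminogen list, 5 to 8 of the coagulation list and 8 to 9 of the thrombospondin list. Depth is unknown, so differences in the members under 1 FPKM cannot be set against counting error.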
